A study of Sus scrofa with 12 samples.

Results

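The SLC25 family of mitochondrial carriers was examined in primary porcine granulosa cells, which line the ovarian follicle and nurse the oocyte. Members were all rows of the deposited expression table whose gene symbol is SLC25A followed by a number, which gave 40 of 18060 genes. The symbol alone chose them, and no measured value did. SLC25A6, SLC25A29, SLC25A31, SLC25A37 and SLC25A51 were not analysed here.

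Cells of the hypoxia group were kept for 12 h at 1% O2, and cells of the normoxia group for 12 h at 21% O2, both with 5% CO2. The donors were adult crossbred sows (Duroc × Yorkshire × Landrace), whose antral follicles were used, and all cultures had medium with fetal bovine serum and antibiotics. With 3 biological replicates a group, and for each an input library of poly(A) RNA plus one precipitated (IP) with an antibody to m6A, the N6-methylated adenosine of mRNA, there were 12 libraries. The sources used here do not tell whether replicates were different sows, so p-values measure the spread between these libraries, which may be technical. RNA levels are FPKM, fragment numbers scaled by transcript length and by library size, of the 6 input libraries.

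Carriers of this family are nuclear-encoded membrane proteins, built of repeats of paired helices, that move metabolites across the inner mitochondrial membrane. They exchange ADP for ATP, bring in phosphate, pass citrate, malate, oxoglutarate, aspartate and glutamate between mitochondria and cytosol, and supply cofactors, nucleotides and iron to the matrix. New carriers cross the outer membrane through the TOM complex and are inserted into the inner membrane by the TIM22 complex.

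Of the 40 members, 29 had at least 1 FPKM in at least 3 libraries and were tested, with 21 of them at or above 1 FPKM in all 6 libraries. In hypoxia 17 of the 29 were lower (58.6%) and 0 higher, by limma on log2(FPKM + 1) at a Benjamini-Hochberg adjusted p under 0.05 over 10196 tested genes. Of all tested genes 21.1% were lower and 5.4% higher, 26.5% in all. At an unadjusted p under 0.05, 0 members were higher. The 29 members had a median log2 fold change of -0.60, and all tested genes had -0.26, so the members' median lay -0.34 from that of all genes. The median over all genes moved to 0.02 when each library was divided by a median-ratio factor. After that scaling 8 members were lower (27.6%) and 0 higher, where 7.39% of all tested genes were lower and 7.34% higher. The 8 were among the 17, and the direction of the 9 others was kept.

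Of the 29 tested members, 17 (58.6%) had all 3 hypoxia libraries below all 3 normoxia libraries, and these were the same 17 that were lower. Over all tested genes this was so for 34.9%. SLC25A1 was the 1 tested member with all hypoxia libraries above (3.45%), where 9.25% of all tested genes were. The count of lower members fell to 5 (17.2%) without normoxia library 2, when 7.83% of all tested genes were lower, and to 10 (34.5%) without normoxia library 1 (11.6%) or 3 (10.1%). It was 12 without hypoxia library 1 (10.4%) and 14 without 2 (22.7%). SLC25A15, SLC25A25, SLC25A28, SLC25A30 and SLC25A33 stayed lower with each library left out in turn and after median-ratio scaling. SLC25A28 and SLC25A30 reached 1 FPKM in all 6 libraries, and SLC25A33 in 2 hypoxia and 3 normoxia libraries. For SLC25A15 and SLC25A25 it was 1 hypoxia and 3 normoxia libraries, so normoxia, where they were high, met the filter. All these fits kept the genes that had passed the filter on 6 libraries.

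**Figure D1:**
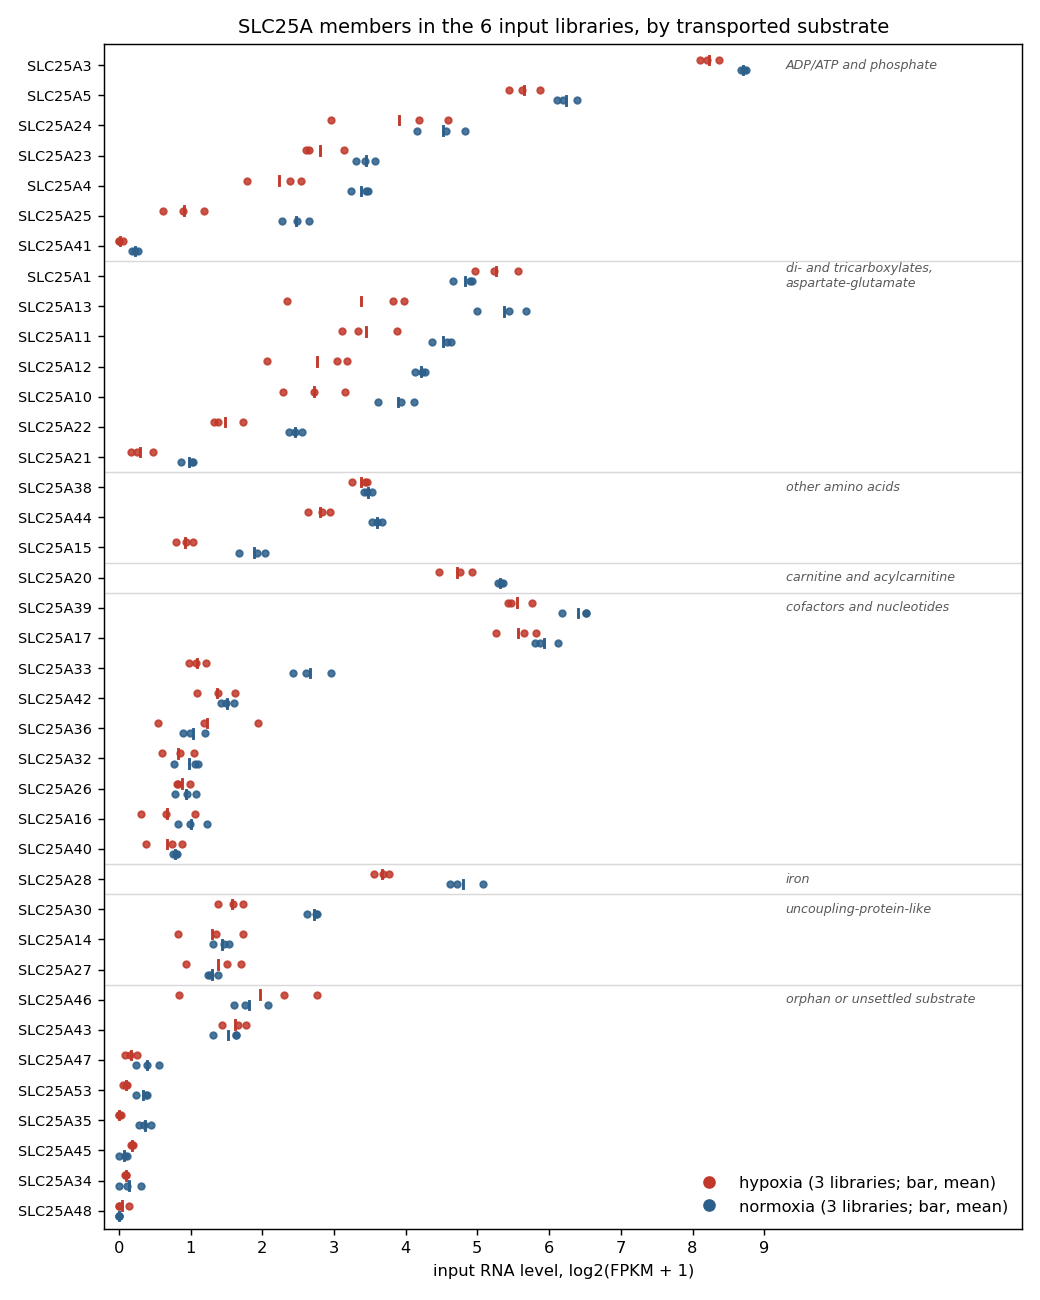
Input RNA level of 39 SLC25A members as log2(FPKM + 1), grouped by transported substrate, with 1 point per library and a bar at the mean of each condition. SLC25A3 stands at the right in both conditions, and the red hypoxia points of SLC25A13, SLC25A33 and SLC25A25 lie well to the left of the blue normoxia points.

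The summed FPKM of the 40 members was 666, 594 and 583 in the hypoxia libraries, against 945, 920 and 922 in the normoxia libraries. These sums were 0.207%, 0.201% and 0.178% of all FPKM in hypoxia, and 0.302%, 0.285% and 0.290% in normoxia. The mitochondrial phosphate carrier gene SLC25A3 alone made up 49.5%, 46.2% and 50.4% of the members' sum in hypoxia and 45.4%, 44.2% and 45.4% in normoxia. In bulk RNA, fewer cells of a type and less RNA per cell cannot be told apart.

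Among carriers of ADP, ATP and phosphate, 5 of 6 tested members were lower and 0 higher (21.1% and 5.4% of all tested genes). Median-ratio scaling left 2 lower, where 7.39% of all tested genes were. SLC25A3 brings phosphate into the matrix for ATP synthesis and had the highest level of the family, with 330, 274 and 294 FPKM in hypoxia libraries 1, 2 and 3, against 429, 406 and 419 FPKM in normoxia libraries 1, 2 and 3. The 2 sets did not overlap, and the hypoxia level was 0.716 of the normoxia level (log2 fold change -0.48, SE 0.13, limma adjusted p = 0.03). It did not pass after median-ratio scaling (-0.13, adjusted p = 0.696), nor with any of 5 libraries left out: 0.0546 and 0.0545 for hypoxia 1 and 2, and 0.117, 0.107 and 0.108 for normoxia 1, 2 and 3.

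SLC25A5, an ADP/ATP carrier of proliferating cells, came after SLC25A3 and SLC25A39 by mean level in the 6 libraries. It had 57.5, 48.4 and 42.2 FPKM in hypoxia, against 83.1, 68.3 and 72.4 FPKM in normoxia (-0.59, SE 0.16, limma adjusted p = 0.035). Its sets did not overlap, yet its call was lost after scaling (-0.24, adjusted p = 0.42). Leaving out hypoxia library 2 gave 0.0585, and normoxia library 1, 2 or 3 gave 0.135, 0.093 or 0.105. SLC25A4, the ADP/ATP carrier best known from heart and muscle, was scarcer. It had 4.84, 4.23 and 2.46 FPKM in hypoxia, against 9.90, 10.1 and 8.39 FPKM in normoxia, with no overlap. Its fall (-1.14, SE 0.23, limma adjusted p = 0.011) kept its call after scaling (-0.85, adjusted p = 0.022), but had 0.0505 without normoxia library 1 and 0.0621 without 2. Reads of near-identical family copies could be split between ADP/ATP carrier genes, so single values of SLC25A4 and SLC25A5 are uncertain to that extent.

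The calcium-regulated ATP-Mg/phosphate carriers, which adjust the adenine nucleotide pool of the matrix, went unevenly. SLC25A25 had 0.867, 1.29 and 0.534 FPKM in hypoxia, against 3.82, 4.58 and 5.26 FPKM in normoxia. Every hypoxia library lay below every normoxia library, and the hypoxia mean was 0.197 of the normoxia mean (-1.56, SE 0.21, limma adjusted p = 0.00252, 0.00388 after scaling). SLC25A23 had 6.07 ± 1.52 FPKM in hypoxia and 9.89 ± 0.996 FPKM in normoxia (SD, n = 3 each; -0.64, limma adjusted p = 0.0462). That call was lost after scaling (-0.32, adjusted p = 0.451). Leaving out hypoxia library 1 or 2 gave 0.164 or 0.0905, and normoxia library 1, 2 or 3 gave 0.0976, 0.18 or 0.134. SLC25A24 overlapped between conditions, with 17.2, 23.1 and 6.76 FPKM in hypoxia, against 27.3, 22.5 and 16.9 FPKM in normoxia (-0.60, limma adjusted p = 0.338). SLC25A41, a further ATP-Mg/phosphate carrier, lies downstream of SLC25A23 on chromosome 2 and had at most 0.208 FPKM in any library.

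Among carriers of di- and tricarboxylates, aspartate and glutamate, 5 of 6 tested members were lower and 0 higher, with a median of -1.12. Of all tested genes 21.1% were lower and 5.4% higher, with a median of -0.26. Scaling left 2 lower, where 7.39% of all tested genes were. SLC25A13 (citrin) and SLC25A12 (aralar) exchange aspartate for glutamate and are parts of the malate-aspartate shuttle, which carries the reducing equivalents of cytosolic NADH into mitochondria. SLC25A13 had 13.2, 14.7 and 4.08 FPKM in hypoxia, against 50.0, 42.6 and 30.8 FPKM in normoxia. The groups were far apart, with hypoxia library 3 the lowest (-1.99, SE 0.44, limma adjusted p = 0.0163, -1.66 and 0.022 after scaling). SLC25A12 had 7.28, 8.07 and 3.19 FPKM in hypoxia, against 18.3, 17.8 and 16.6 FPKM in normoxia (-1.45, SE 0.30, limma adjusted p = 0.0123, -1.13 and 0.0189 after scaling). Their calls were lost without normoxia library 1 (0.0681 for SLC25A13 and 0.0527 for SLC25A12) or 2 (0.073 and 0.0608). SLC25A12 shares 57402 bases with HAT1 on the opposite strand. HAT1 averaged 5.66 FPKM over the 6 libraries, and the sources used here do not say whether counting used strand.

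SLC25A11, the oxoglutarate-malate carrier of the same shuttle, fell as well. It had 9.14, 7.63 and 13.7 FPKM in hypoxia, against 19.6, 23.8 and 22.7 FPKM in normoxia (-1.08, SE 0.22, limma adjusted p = 0.0125). The dicarboxylate carrier SLC25A10, which exchanges malate or succinate for phosphate, had 5.62, 3.88 and 7.89 FPKM in hypoxia, against 11.2, 14.3 and 16.3 FPKM in normoxia (-1.16, SE 0.25, limma adjusted p = 0.0158). The glutamate carrier SLC25A22 had 1.5, 1.61 and 2.33 FPKM in hypoxia, against 4.19, 4.85 and 4.50 FPKM in normoxia (-0.98, SE 0.18, limma adjusted p = 0.00775). In each of these 3 genes, unlike the aspartate-glutamate carriers, hypoxia library 3 was the highest of its group, and the conditions did not overlap. After scaling, SLC25A11 had -0.74 (adjusted p = 0.138), SLC25A10 -0.84 (0.124) and SLC25A22 -0.71 (0.067), so these calls were lost. Without hypoxia library 1 SLC25A11 and SLC25A10 had an adjusted p of 0.0581 and 0.0619, without normoxia library 2 they had 0.067 and 0.0747, and without normoxia library 3 they had 0.0553 and 0.0677. SLC25A22 had 0.0514 without normoxia library 2.

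The citrate carrier SLC25A1, which exports citrate for fatty acid and sterol synthesis, went against its group. It had 36.5, 30.2 and 46.4 FPKM in hypoxia, against 24.4, 29.4 and 28.8 FPKM in normoxia. The sets just failed to overlap, and the difference did not pass (0.42, SE 0.19, limma adjusted p = 0.146, and 0.77 with 0.0957 after scaling). SLC25A21, which carries oxoadipate and oxoglutarate, was below the filter with 0.127, 0.390 and 0.193 FPKM in hypoxia, against 1.05, 1.03 and 0.826 FPKM in normoxia. It was 0.244 of the normoxia level, and the authors' deposited table marks it as significant with a q-value of 0.00413.

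Amino acid carriers outside that group divided into 2 that fell and 1 that did not pass, where 21.1% of all tested genes were lower. Scaling left 1 lower, where 7.39% of all tested genes were. SLC25A15, the ornithine carrier of the urea cycle and arginine metabolism, had 1.05, 0.908 and 0.744 FPKM in hypoxia, against 3.10, 2.81 and 2.21 FPKM in normoxia (-0.96, SE 0.17, limma adjusted p = 0.00639, 0.0167 after scaling). SLC25A44, which carries branched-chain amino acids, had 6.15, 6.71 and 5.25 FPKM in hypoxia, against 10.54, 11.74 and 11.08 FPKM in normoxia (-0.79, SE 0.15, limma adjusted p = 0.00922). For both genes the hypoxia libraries all lay below the normoxia libraries. SLC25A44 had -0.47 (adjusted p = 0.0775) after scaling and 0.0603 without normoxia library 2, and it shares 644 bases with PMF1 on the same strand. SLC25A38, a glycine carrier needed for heme synthesis, overlapped between conditions, with 9.79, 8.51 and 9.97 FPKM in hypoxia, against 9.71, 10.6 and 9.96 FPKM in normoxia (-0.09, SE 0.14, limma adjusted p = 0.686). The estimate turned to 0.23 (adjusted p = 0.468) after scaling.

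The carnitine-acylcarnitine carrier SLC25A20 lets fatty acids enter the matrix for oxidation. It had 29.4, 26.1 and 21.2 FPKM in hypoxia, against 39.1, 39.9 and 38.0 FPKM in normoxia. The sets did not overlap (-0.60, SE 0.16, limma adjusted p = 0.0288), but the call was lost after scaling (-0.26, adjusted p = 0.335) and without normoxia library 1 (0.0976), 2 (0.121) or 3 (0.0946).

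Among carriers of cofactors and nucleotides, 2 of 7 tested members were lower and 0 higher, with a median of -0.15. That is near the share of all tested genes, of which 21.1% were lower and 5.4% higher, with a median of -0.26. Scaling left 1 lower, where 7.39% of all tested genes were. SLC25A33 takes pyrimidine nucleotides into mitochondria. It had 1.11, 1.32 and 0.962 FPKM in hypoxia, against 4.40, 5.10 and 6.79 FPKM in normoxia, 0.208 of the normoxia level (-1.58, SE 0.19, limma adjusted p = 0.0018, 0.00416 after scaling). The glutathione carrier SLC25A39 had 43.1, 41.9 and 53.2 FPKM in hypoxia, against 71.2, 90.5 and 90.8 FPKM in normoxia (-0.85, SE 0.17, limma adjusted p = 0.00995). SLC25A39 did not overlap between conditions, yet after scaling it had -0.50 (adjusted p = 0.21). Its adjusted p was 0.0503 when hypoxia library 1 was left out, 0.0604 for normoxia library 2 and 0.0521 for 3. The peroxisomal carrier SLC25A17, next after SLC25A5 by mean level, overlapped between conditions, with 55.2, 49.2 and 37.2 FPKM in hypoxia, against 68.9, 54.7 and 57.8 FPKM in normoxia (-0.36, limma adjusted p = 0.202). SLC25A36, a further pyrimidine nucleotide carrier, had 1.28, 2.82 and 0.466 FPKM in hypoxia, a span that held its 3 normoxia libraries of 1.29, 0.992 and 0.869 FPKM (0.19, limma adjusted p = 0.716). The folate and FAD carrier SLC25A32 had -0.15 and the coenzyme A carrier SLC25A42 had -0.15, and neither passed limma (adjusted p = 0.586 and 0.609). After scaling their estimates were 0.01 and 0.09.

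The iron importer SLC25A28 (mitoferrin-2) supplies mitochondria with iron for heme and iron-sulfur clusters. It had 12.7, 11.9 and 10.8 FPKM in hypoxia, against 23.5, 25.4 and 32.8 FPKM in normoxia. The hypoxia libraries lay close together, at 0.432 of the normoxia level (-1.13, SE 0.17, limma adjusted p = 0.00393, -0.80 and 0.0345 after scaling).

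Among the carriers that resemble uncoupling proteins, SLC25A30 had 2.32, 2.03 and 1.62 FPKM in hypoxia, against 5.81, 5.75 and 5.16 FPKM in normoxia (-1.14, SE 0.17, limma adjusted p = 0.00352, 0.00926 after scaling). The spread within each condition was far smaller than the gap between them. SLC25A14 and SLC25A27 had log2 fold changes of -0.14 and 0.09, with adjusted p of 0.733 and 0.809 by limma, and SLC25A14 turned to 0.07 (adjusted p = 0.874) after scaling. The members with orphan or unsettled substrates that could be tested, SLC25A43 and the mitochondrial outer membrane protein gene SLC25A46, had 0.10 and 0.15 and did not pass limma (adjusted p = 0.74 and 0.857).

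**Figure D2:**
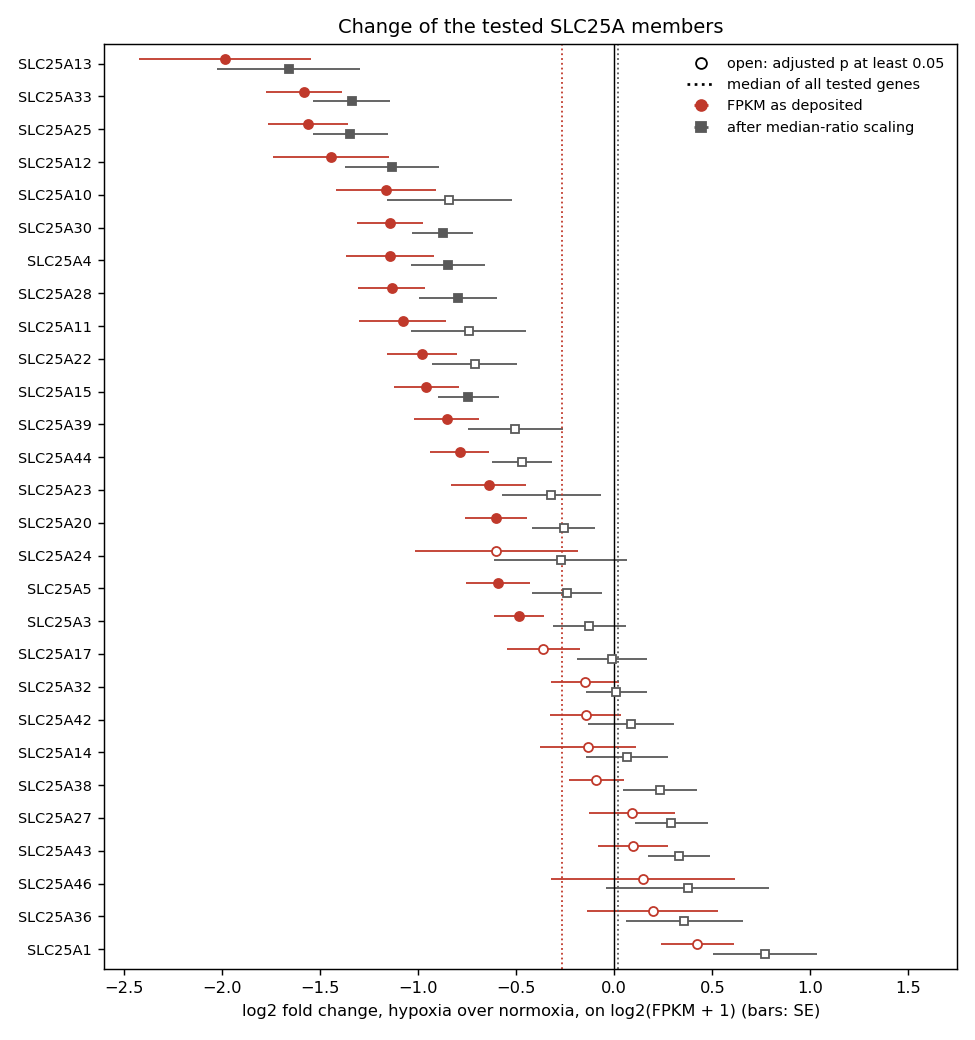
Log2 fold change of 28 tested members in hypoxia over normoxia with its SE, from FPKM as deposited (red circles) and after median-ratio scaling (grey squares), where filled symbols have an adjusted p under 0.05 and dotted lines mark the median of all tested genes. The 17 filled circles run from -1.99 for SLC25A13 to -0.48 for SLC25A3, and 8 squares remain filled.

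The remaining 11 members were below the filter, and the highest mean among them was 1.03 FPKM, for SLC25A16 in normoxia. Fitted without a filter on FPKM, SLC25A21, SLC25A35, SLC25A41 and SLC25A53 were lower and 0 of the 11 higher by limma (adjusted p = 0.0141, 0.0074, 0.011 and 0.028). SLC25A35 was listed at 0 in hypoxia libraries 1 and 2 and at 0.019 FPKM in 3, against 0.218, 0.368 and 0.281 FPKM in normoxia. SLC25A48 was listed at 0 in all libraries except hypoxia library 1. With FPKM and no counts, how many fragments stand behind such values is unknown.

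Hypoxia library 3 stood apart from its replicates. It was the lowest of all 6 libraries for 18 of the 29 tested members (62.1%), and for 49.9% of all tested genes. Its median-ratio factor was 0.753, against 0.935 and 0.984 in hypoxia libraries 1 and 2 and 1.08 to 1.17 in the normoxia libraries. SLC25A46 shows it most plainly among the members, with 3.92, 5.79 and 0.795 FPKM in hypoxia, against 3.24, 2.39 and 2.06 FPKM in normoxia. Without hypoxia library 3 the count of lower members was again 17, where 31.2% of all tested genes were lower, and SLC25A46 was higher (0.71, limma adjusted p = 0.0135). With that library left out and the others scaled, 14 members were lower, where 20.5% of all tested genes were. In that fit SLC25A46 (0.89, adjusted p = 0.00153), SLC25A36 (0.66, 0.0136), SLC25A1 (0.49, 0.0323) and SLC25A27 (0.46, 0.0236) were higher by limma, where 20.1% of all tested genes were. Scaling alone had removed the calls of 9 members. Of these, SLC25A10, SLC25A11, SLC25A22, SLC25A39, SLC25A44 and SLC25A23 were lower there, with adjusted p between 0.00015 and 0.0132. SLC25A3, SLC25A5 and SLC25A20 did not pass limma there either (adjusted p = 0.284, 0.231 and 0.19).

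Ratios between related members within a library do not depend on any scaling of libraries, and 6 such pairs are described. They were chosen, and the gene on top set, with the members' changes known, so their common direction is no result and no test is given. The SLC25A13 to SLC25A12 ratio was 1.81, 1.83 and 1.28 in hypoxia, against 2.73, 2.39 and 1.86 in normoxia. The SLC25A4 to SLC25A5 ratio was 0.0841, 0.0873 and 0.0582 in hypoxia, against 0.119, 0.148 and 0.116 in normoxia. The gap between conditions was narrow in the first pair, where the highest hypoxia ratio of 1.83 lay next to the lowest normoxia ratio of 1.86. SLC25A25 was 0.165, 0.251 and 0.0682 of SLC25A23 in hypoxia, against 0.428, 0.419 and 0.535 in normoxia, and 0.0505, 0.0556 and 0.0789 of SLC25A24 in hypoxia, against 0.14, 0.203 and 0.311 in normoxia. SLC25A33 was 0.862, 0.466 and 2.07 times SLC25A36 in hypoxia, against 3.41, 5.14 and 7.82 times in normoxia. SLC25A10 was 0.154, 0.128 and 0.17 of SLC25A1 in hypoxia, against 0.46, 0.486 and 0.568 in normoxia. The largest difference of mean log2 ratios was -2.46, for SLC25A33 over SLC25A36, and the smallest -0.51, for SLC25A13 over SLC25A12.

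**Figure D3:**
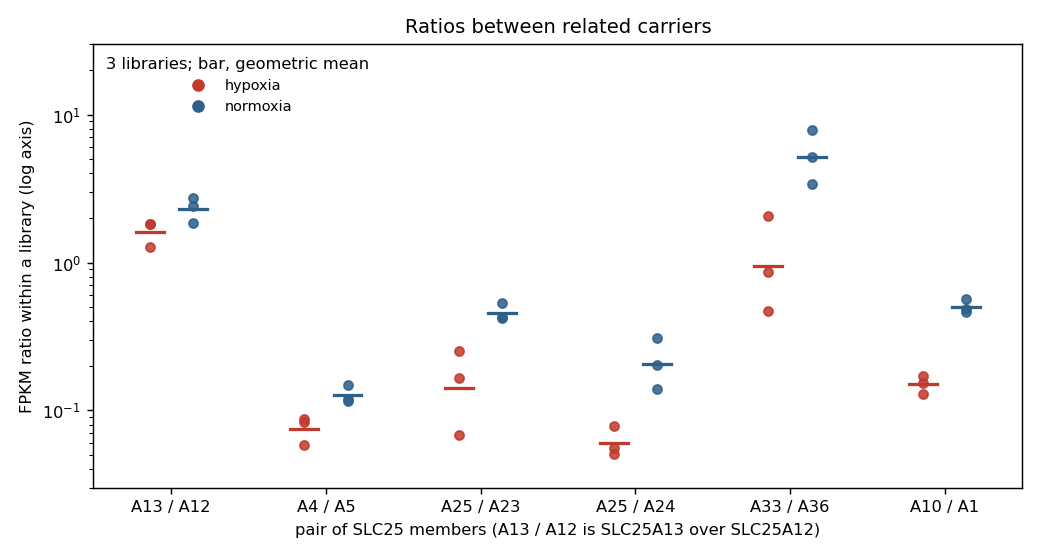
FPKM ratio of 6 pairs of related members in each library on a log axis, with bars at the geometric mean of 3 libraries. The gap is narrow for SLC25A13 over SLC25A12 (1.83 in hypoxia against 1.86 in normoxia at its closest), the means differ most for SLC25A33 over SLC25A36, and the genes on top were chosen with the changes known.

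The authors' deposited table of differential expression marks 14 members as significant, all 14 down, where it marks 8.72% of its 18060 genes as down and 4.75% as up. Of the 14, 11 were lower by limma here, and the other 3, SLC25A21, SLC25A35 and SLC25A53, were below the filter. The 6 members lower here but not marked there were SLC25A3, SLC25A5, SLC25A20, SLC25A23, SLC25A39 and SLC25A44, each with a smaller change here than the 11. The authors' mark and the limma call rest on unlike thresholds. The call here used no fold threshold, and the mark is not a q-value under 0.05, which 13 members had. SLC25A11 is marked in the authors' deposited table with a q-value of 0.0578. The largest log2 fold changes among tested members in the authors' deposited table were -2.35 for SLC25A25, -2.27 for SLC25A33 and -1.95 for SLC25A13, on FPKM without a pseudocount.

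Of 13 tested genes of the machinery that imports and inserts carriers, 6 were lower and 0 higher (21.1% and 5.4% of all tested genes), with a median log2 fold change of -0.69, where that of all genes was -0.26. After median-ratio scaling 2 of the 13 were lower, where 7.39% of all tested genes were. TOMM40, the channel of the outer membrane, had 9.56 ± 0.919 FPKM in hypoxia and 28.0 ± 1.87 FPKM in normoxia (SD, n = 3 each; -1.46, limma adjusted p = 0.000862, 0.00446 after scaling). TIMM10 (-0.87) and TIMM13 (-0.69), chaperones of the space between the membranes, TIMM8A (-0.86), a partner of TIMM13, the acylglycerol kinase AGK (-0.72), a subunit of the TIM22 complex, and the receptor TOMM22 (-0.70) were the others. TIMM8A stayed lower after scaling (-0.70) but had 0.517, 0.643 and 0.338 FPKM in hypoxia, against 1.96, 1.81 and 1.40 FPKM in normoxia. It met the filter only through normoxia, the group where it was high. TIMM22 itself had 10.7 ± 2.1 FPKM in hypoxia and 13.4 ± 0.822 FPKM in normoxia (SD, n = 3 each) and did not pass limma (-0.31, adjusted p = 0.244).

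Among 13 tested mitochondrial transporters outside the family, 3 were lower and 1 higher (21.1% and 5.4% of all tested genes), with a median of -0.20. After median-ratio scaling 2 were lower and 2 higher (7.39% and 7.34% of all tested genes), with a median of -0.003. LETM1, an inner membrane protein of cation exchange, fell to 4.94 ± 0.505 FPKM in hypoxia, against 20.8 ± 3.01 FPKM in normoxia (SD, n = 3 each; -1.87, limma adjusted p = 0.00066). ABCB8 had -1.04 (adjusted p = 0.0159) and the sideroflexin SFXN5 -0.55 (0.0317, and 0.219 after scaling). SFXN5 reached 1 FPKM in the normoxia libraries alone, so it too met the filter only through the group where it was high. VDAC3, a pore of the outer membrane, rose to 140 ± 42.9 FPKM in hypoxia, against 36.1 ± 6.1 FPKM in normoxia (1.89, limma adjusted p = 0.00333). The carrier-fold proteins MTCH1 (142 ± 16.2 FPKM in hypoxia and 163 ± 10.8 FPKM in normoxia) and UCP2 (1.63 ± 0.125 FPKM in hypoxia and 2.26 ± 0.55 FPKM in normoxia, SD, n = 3 each) did not pass limma (adjusted p = 0.352 and 0.269).

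The check genes of hypoxia, such as VEGFA and BNIP3, were higher in 9 of 9 cases. Of the granulosa markers, 14 were measured and 10 tested, with 2 lower (AMHR2 and FSHR) and 1 higher (INHBB). Of all tested genes 21.1% were lower and 5.4% higher. After scaling 0 of the markers were lower and INHBB was higher. AMHR2 had 0.472, 0.521 and 1.36 FPKM in hypoxia, against 1.93, 2.66 and 3.58 FPKM in normoxia. For it, normoxia, where it was high, met the filter. CYP11A1 averaged 128 FPKM in hypoxia and 315 FPKM in normoxia, INHBA 28.1 FPKM in hypoxia and 28.9 FPKM in normoxia, and GATA4 14.9 FPKM in hypoxia and 16.0 FPKM in normoxia. NR5A1, INHA, FSHR and FOXL2 lay between 4.50 and 10.6 FPKM in hypoxia and between 6.83 and 12.9 FPKM in normoxia. CYP19A1, AMH and STAR were at or near 0, at most 0.149 FPKM in any hypoxia library and at most 0.402 FPKM in any normoxia library. The 14 markers summed to 184 to 337 FPKM in hypoxia and 354 to 555 FPKM in normoxia. Fibroblast and smooth muscle markers (8 of 8 tested, 2 lower and 2 higher) summed to 3852 to 4874 FPKM in hypoxia and 7551 to 9337 FPKM in normoxia, mostly ACTA2. The lower ones were ACTA2 (-1.14) and DES (-0.65, call lost after scaling), and the higher ones COL1A1 (0.62) and PDGFRA (0.84). ACTA2 averaged 3477 FPKM in hypoxia and 7642 FPKM in normoxia. COL1A1 averaged 286 FPKM in hypoxia and 184 FPKM in normoxia, COL3A1 325 and 308 FPKM, and DCN 198 and 231 FPKM. Endothelial markers (1 of 5 measured tested, and it was lower) summed to 3.29 to 3.39 FPKM in hypoxia and 6.82 to 7.15 FPKM in normoxia, and leukocyte markers (2 of 6 measured tested, 0 passed) to 2.87 to 7.84 FPKM in hypoxia and 3.82 to 4.82 FPKM in normoxia. Theca markers (1 of 4 measured tested, 0 passed) summed to 0.775 to 1.33 FPKM in hypoxia and 2.26 to 2.28 FPKM in normoxia, and oocyte markers (1 of 2 measured tested, 0 passed) to 0.56 to 1.33 FPKM in hypoxia and 1.12 to 1.41 FPKM in normoxia. The part of these shifts in the members' values was not tested.

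The m6A peaks come from the authors' lists, 1 per condition, with enrichment of IP over input as the authors' value per peak. In hypoxia 22 members held 39 peaks and in normoxia 28 members held 40, from lists of 24444 peaks in hypoxia and 25346 in normoxia. The 22 members were all among the 28. Of the 29 tested members 22 had a peak in hypoxia (75.9%) and 23 in normoxia (79.3%), near the 79.8% in hypoxia and 85.8% in normoxia of all tested genes. Most of the members' peaks were annotated to 3′ UTRs, 84.6% in hypoxia and 87.5% in normoxia, where the whole lists had 43.7% in hypoxia and 45.8% in normoxia. The members' median enrichment was 4.64 in hypoxia and 4.92 in normoxia, where the whole hypoxia list had 4.81 and the whole normoxia list 4.23.

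The 6 members with a peak in the normoxia list alone were SLC25A13, SLC25A26, SLC25A34, SLC25A35, SLC25A47 and SLC25A53. The whole normoxia list was also the larger, with peaks of 11602 genes, against 11047 in the hypoxia list and 12482 in either. SLC25A13 was the 1 of them that was tested for RNA, with a 3′ UTR peak on chromosome 9, 75782255 to 75782552 (Sscrofa11.1), 2.79-fold enriched in normoxia. Means of the other 5 did not exceed 0.924 FPKM in normoxia. Their enrichments, between 3.17 and 14.8, were each shared by at least 152 peaks of the list. The peak of SLC25A53 had an adjusted p of 0.331 by the authors' values. Such repeated values, held by 100 or more peaks of a list, were found for 14 of the members' peaks in hypoxia and 11 in normoxia. Their share over the whole lists is not given here.

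A high level of RNA did not always go with a listed peak. SLC25A5, SLC25A17, SLC25A39 and SLC25A1 were among the 12 members with no peak in either list, although their means over 3 libraries were between 27.5 and 84.2 FPKM. SLC25A3 had 1 peak of the same 269 bases in both lists, at the very end of the gene (chromosome 5, 85284311 to 85284579), 7.29-fold enriched in hypoxia and 7.6-fold in normoxia. SLC25A20 had 1 in its 3′ UTR (chromosome 13, 31524264 to 31524588, 7.47-fold in hypoxia, and 31524234 to 31524588, 9.56-fold in normoxia). SLC25A38, whose RNA did not pass the test, had 1 of 4.25-fold in hypoxia and 4.2-fold in normoxia.

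**Figure D4:**
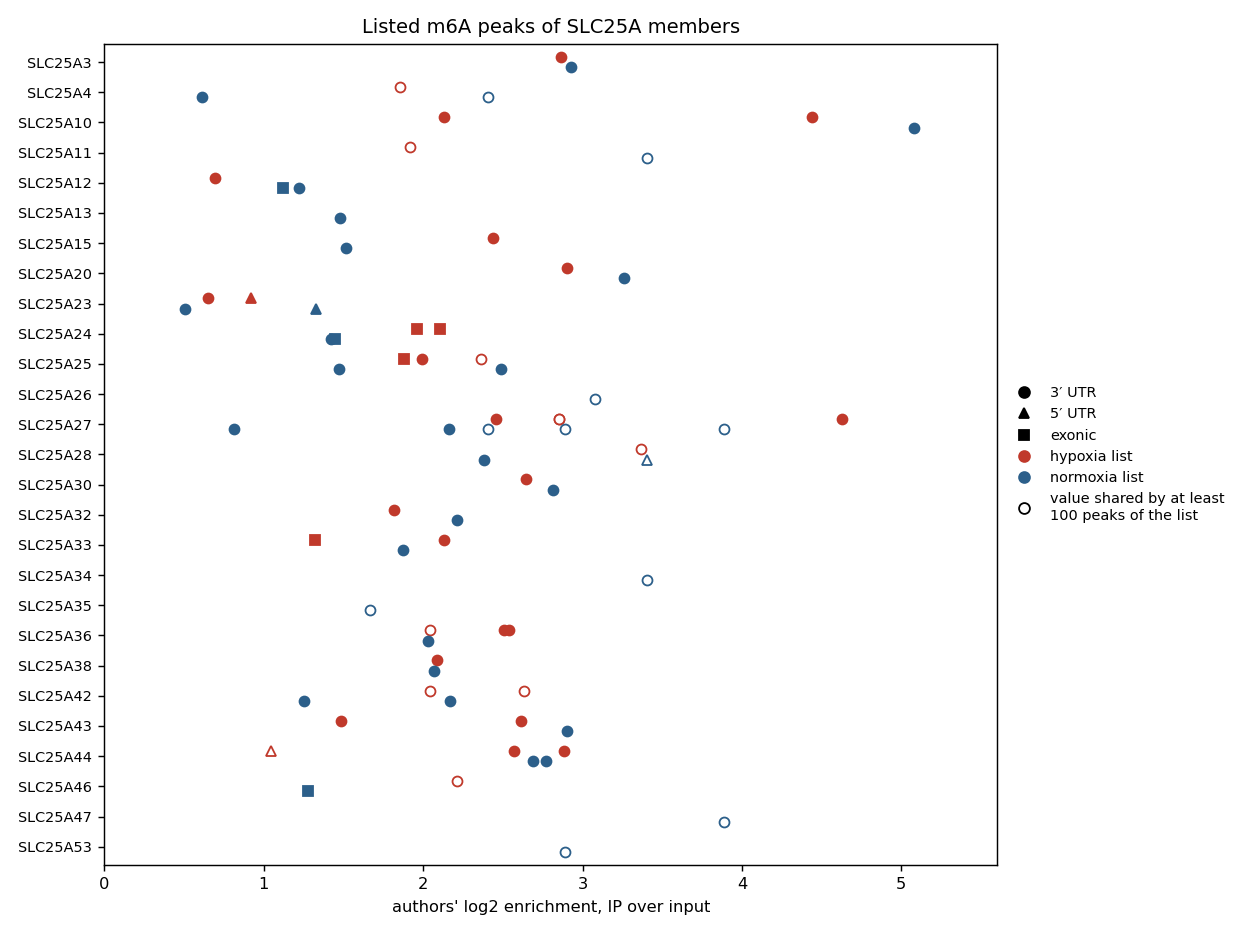
Log2 enrichment of IP over input of every listed m6A peak of 27 members with a peak, by condition and annotated region, with open symbols for values shared by at least 100 peaks of the list. Most symbols are circles (3′ UTR), and SLC25A13, SLC25A26, SLC25A34, SLC25A35, SLC25A47 and SLC25A53 have blue normoxia symbols alone.

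Taking for each of the 22 members with peaks in both lists the peak with the lowest p-value, 19 pairs overlapped in position by at least 1 base. The value was higher in the hypoxia list for 12 members and lower for 10, and the median difference was 0.06 on the log2 scale, hypoxia minus normoxia. These are differences between separate lists and were not tested. Several rest on peaks of unlike extent. In SLC25A4 the hypoxia peak (log2 enrichment 1.85) met the normoxia peak of lowest p (0.61) at its first base alone, while a second normoxia peak over most of the same stretch had 2.40, so the direction depends on which normoxia peak is taken. In SLC25A11 the hypoxia peak of 358 bases (1.92) lay within a normoxia peak of 2101 bases (3.41). Repeated values are among these. For SLC25A4, 1.85 is held by 173 peaks of the hypoxia list and 2.40 by 510 of the normoxia list. For SLC25A11, 1.92 is held by 141 peaks of the hypoxia list and 3.41 by 375 of the normoxia list.

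The authors' deposited table of differential m6A holds a peak of 3 members, SLC25A25, SLC25A28 and SLC25A30, and so of 3 of the 28 members with a peak, where 8.76% of all genes with a peak have one. At an adjusted p under 0.05, 3.24% of such genes have one, and SLC25A28 is the 1 member. In that table its peak, which spans chromosome 14 from 110795307 to 110805510 and so nearly the whole gene on the minus strand (110795307 to 110805570), was higher in hypoxia by 0.39 on the log2 scale (adjusted p = 3.55e-06). The normoxia list splits the gene into a 3′ UTR peak of 3476 bases, 5.2-fold enriched, and a 5′ UTR peak of 6730 bases, 10.6-fold enriched, while the hypoxia list holds 1 peak over the full 10264 bases, 10.3-fold enriched. The value 10.3 is held by 443 peaks of the hypoxia list, and 10.6 by 375 peaks of the normoxia list. The RNA of SLC25A28 in hypoxia was meanwhile at 0.432 of the normoxia level.

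In SLC25A25 a 3′ UTR peak on chromosome 1 (268574766 to 268575353) had a difference of -0.74 in the authors' deposited table (adjusted p = 0.254). In SLC25A30 a 3′ UTR peak on chromosome 11 (21851122 to 21851689) had -0.45 in the authors' deposited table (adjusted p = 0.191). The RNA of both genes was lower in hypoxia by the limma test above, while these m6A differences did not pass the authors' adjustment. For SLC25A25 the normoxia list holds 1 long peak of 1227 bases at 5.6-fold, and the hypoxia list 2 short ones within it, of 260 and 60 bases, at 3.68-fold and 3.98-fold. Each list also holds 1 peak nearer the 3′ end, 5.15-fold in hypoxia and 2.77-fold in normoxia. By the authors' values their adjusted p was 0.0977 in hypoxia and 1.51e-05 in normoxia. The value 5.15 is held by 547 peaks of the hypoxia list.

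**Figure D5:**
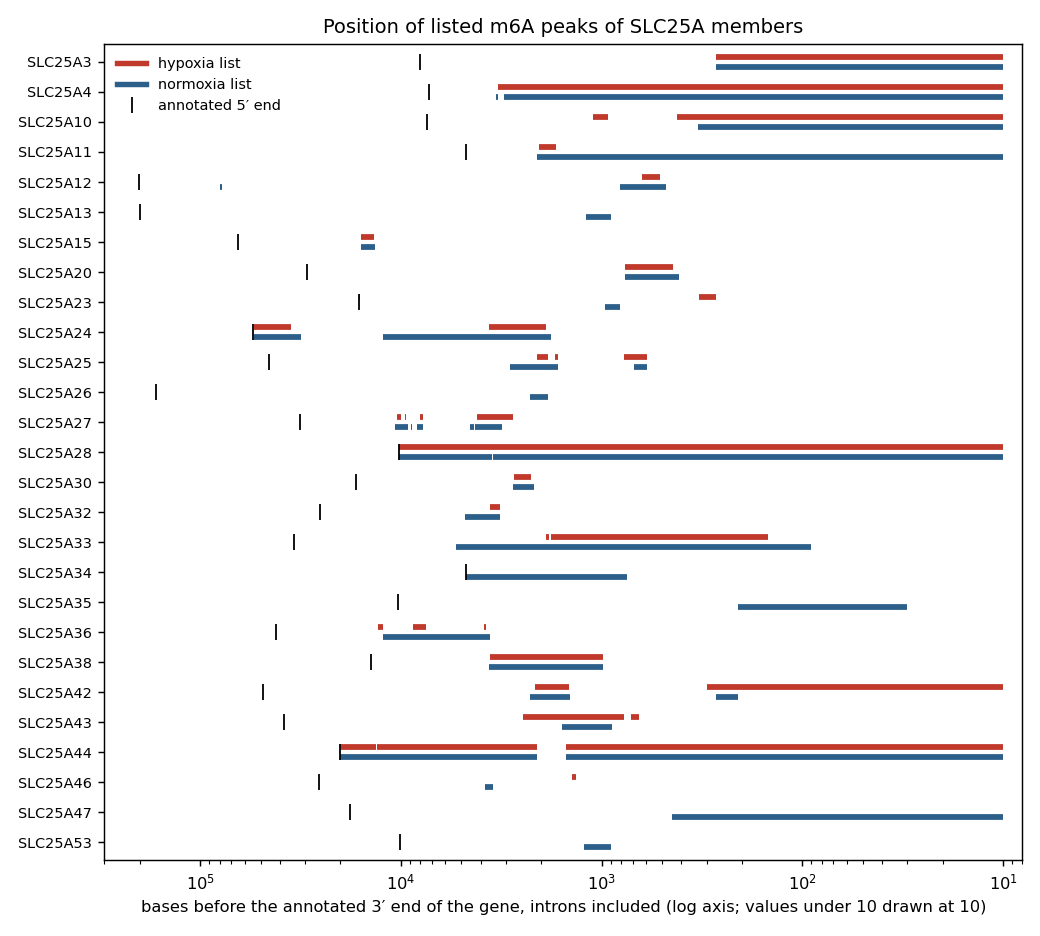
Position of each listed peak of 27 members as the distance in bases before the annotated 3′ end of the gene, introns included, on a log axis with values under 10 drawn at 10; red lines are the hypoxia list, blue lines the normoxia list, and ticks the annotated 5′ end. The 2 lists mostly mark the same stretches, and in SLC25A28 and SLC25A44 the peaks cover nearly the whole gene.

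By position, 32 of the 39 hypoxia peaks and 29 of the 40 normoxia peaks of members overlapped a peak of the same member in the other list. The end of the peak lay within 500 bases of the annotated 3′ end of the gene for 11 hypoxia and 13 normoxia peaks. Shares over the whole lists are not given here, so these counts do not set the members apart from other genes. SLC25A27, the uncoupling-like carrier, held the most, with 4 peaks in hypoxia and 5 in normoxia, all in its 3′ UTR, the most enriched of them 24.7-fold in hypoxia and 14.8-fold in normoxia. The weakest of these had an adjusted p, by the authors' values, of 0.36 and 0.0977 in hypoxia and 0.331 and 0.1 in normoxia. The value 14.8 is held by 152 peaks of the normoxia list. SLC25A10 had the highest enrichment of the family in normoxia, 33.8-fold at the 3′ end of the gene (chromosome 12, 1189903 to 1190233), with 21.7-fold in hypoxia over 1189903 to 1190323. SLC25A46 had a peak in each list, but at different places, 1 in the 3′ UTR in hypoxia and 1 annotated as exonic in normoxia.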

How the data were processed

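The members, lists and pairs were chosen with earlier results of these data known. RNA levels are FPKM as deposited by the authors for 6 input libraries. Tools named in the submitters' processing notes, with build Sscrofa11.1, include HOMER 4.10, HISAT2 2.0.4, edgeR 4.1, StringTie 2.1.2, FastQC and fastp 0.19.4; what made each table was not given in the sources used here. Per the file headers, the authors' tables give log2 fold changes, fold changes as ratios, p-values and q-values for genes, and log2 enrichments or differences with p-values for peaks; how replicates were combined is not stated.

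FPKM holds no counts. Among 1353 low genes with 1 transcript, at most 4 shared a ratio between normoxia libraries 1 and 2 (to 3 decimals), so depth is unknown and no counting interval is given. Library sums were 294929 to 326804 FPKM. Genes reaching 1 FPKM in 3 or more libraries were compared with limma 3.58.1 (trend, robust) in R 4.3.3 on log2(FPKM + 1), which understates changes of low genes; this test was first tested on simulated data. Errors are SD of FPKM and SE of log2 fold changes. Pair ratios are described with no test. Named members were up to 8 of the largest rises (0 passed) and the 12 largest falls, the 5 highest levels, those with a differential peak, the ADP/ATP and iron carriers and those whose call changed under scaling; the others were named to account for the members. Values of 1 member and of 1 transporter outside the family are not reported here, but they stay in all fits and counts; the member is not drawn.

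Peak starts were read as counted from 0 (3369 normoxia peaks begin 1 base before their gene and 0 at it) and are given from 1. Of 519 positive differential peaks 87 overlapped the hypoxia list alone and 1 the normoxia list alone; of 687 negative ones 0 and 121, so positive was read as higher in hypoxia. Peaks of members were matched by gene symbol. Alternatives were median-ratio scaling, a pseudocount of 0.1, no filter, limma without trend and robust estimation, the replicate block, each library left out, and stricter peak thresholds.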

Additional observations from a re-analysis of the deposited data

How the results depend on the processing

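The count of 17 lower members was 8 after median-ratio scaling, ranged from 5 to 17 with 1 library left out, and was 17 with a pseudocount of 0.1, without trend and robust estimation and with the replicate block, and 19 without a filter, where 4 low members were added and SLC25A5 (adjusted p = 0.0554) and SLC25A23 (0.0736) lost by limma. The count of higher members was 0 under these, except 1 without hypoxia replicate 3 and 4 with scaling and without hypoxia replicate 3, a setting chosen after seeing the data. The members' median of -0.60 became -0.27 after scaling, -0.36 without a filter (which adds low members) and -0.26 with scaling and without hypoxia replicate 3, and ranged from -0.71 to -0.49 with 1 library left out. All tested genes past the threshold numbered 2699, 1501 after scaling, 4145 with scaling and without hypoxia replicate 3, and 1132 to 4329 with 1 library left out; 2148 were lower and 551 higher, against 753 and 748 after scaling. Of the import, carrier-fold and transporter genes 10 passed, 6 after scaling and 5 to 13 with 1 library left out. Reversed estimates of the members named here, none of which passed, were after scaling SLC25A32 (0.00946), SLC25A42 (0.0862), SLC25A14 (0.0656) and SLC25A38 (0.23). With 1 library left out the sign turned in SLC25A14 (-0.35 to 0.10), SLC25A27 (-0.0689 to 0.31), SLC25A43 (-0.0123 to 0.19), SLC25A46 (-0.25 to 0.71) and SLC25A36 (-0.16 to 0.53). These ranges hold every fit with 1 library left out. The 0.71 of SLC25A46, which is not a reversal, passed limma (adjusted p = 0.0135). With scaling and without hypoxia replicate 3 the reversed estimates were SLC25A24 (0.0897), SLC25A17 (0.0181), SLC25A32 (0.0813), SLC25A14 (0.25) and SLC25A38 (0.0756). The cause was not tested.

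Same-numbered libraries of the 2 conditions had correlations of deviations of 0.586, 0.0398 and 0.697, and not every library correlated best with its own number. The numbers were not taken to pair the libraries, but with 3 libraries a group these correlations cannot show whether they were paired. The replicate block gave 17 lower members and 0 higher, and changed no member's call. Over all tested genes 3463 passed with the block, against 2699 without it. Members with a peak numbered 22 in hypoxia and 27 in normoxia at an adjusted p under 0.05, and 16 and 19 when 4-fold enrichment was also asked. Differential m6A fell to 1 member at an adjusted p under 0.05. Unknown depth limits the low members most.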
